A study of Mus musculus with 2 samples.

Results

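The killer lectin-like receptor genes, taken here as every gene of the expression tables whose symbol starts with Klr, were described in single cells of CT26 tumors. There were 27 such genes among the 33696 genes counted. CT26 cells, a line from a colon carcinoma of the mouse, were grown under the skin of male BALB/c mice aged 6 to 8 weeks. The UT library came from untreated mice, and the BUP library from mice given BUP-Gel, a hydrogel that holds the local anesthetic bupivacaine, at 40 mg/kg by the study's methods. Each library pooled 3 tumors, so each condition had 1 library, in which the tumors cannot be told apart. Live CD45+ and CD45- cells were sorted and mixed, at 4 to 1 per the labels and 3 to 1 per the study's methods, so that shares of cells reflect the mix. With 1 library per condition no difference between UT and BUP has a replicate check, and no p-value is given. All intervals are exact 95% intervals and cover counting error only.

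Killer lectin-like receptors sit on NK cells and on subsets of T cells and myeloid cells, and they set the threshold at which these cells attack. The Klra genes encode the Ly49 receptors of rodents, most of which read classical MHC class I. Klrd1 (CD94) pairs with Klrc1 (NKG2A), an inhibitory receptor for the class Ib molecule Qa-1, or with Klrc2 (NKG2C), an activating one. Klrk1 (NKG2D) is an activating receptor for stress-induced ligands, Klrg1 is an inhibitory receptor for cadherins, and the Klrb1 genes include the NK1.1 family and receptors for Clec2 proteins. Inhibitory members carry a short tyrosine motif in the cytoplasmic tail that recruits phosphatases, whereas activating members signal through partner proteins such as Tyrobp (DAP12) and Hcst (DAP10). The Ly49 gene content differs between mouse strains, and the tables were counted on the C57BL/6 reference, so UMIs of a BALB/c Klra gene can be assigned to the nearest reference gene.

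All 27 members lay on chromosome 6 of GRCm39. Klrg2 was at chr6:38595375-38614222 and Klrg1 at chr6:122246981-122259914, and the other 25 lay between the start of Klrb1a at 128586190 and the end of Klra2 at 131224330. The first 60 coding bases of the members that the results turn on are given first, since the tail that carries the signaling motif is at the amino end of these proteins. They were read from the longest GENCODE coding sequence of each gene, 5′ to 3′. Capitals mark an in-frame match to the inhibitory motif: a codon for isoleucine, leucine, serine or valine, any codon, a tyrosine codon (TAC or TAT), any 2 codons, and a codon for leucine, isoleucine or valine.
Klrc1 (chr6:129655814-129655873, minus strand): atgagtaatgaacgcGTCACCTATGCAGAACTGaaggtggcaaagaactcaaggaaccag
Klrc2 (chr6:129637460-129637519, minus strand): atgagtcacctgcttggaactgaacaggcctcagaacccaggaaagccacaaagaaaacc
Klrg1 (chr6:122259711-122259770, minus strand): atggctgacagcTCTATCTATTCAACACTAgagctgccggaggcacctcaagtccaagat
Klrb1b (chr6:128803150-128803209, minus strand): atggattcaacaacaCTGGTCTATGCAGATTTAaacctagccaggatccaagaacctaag
Klrb1f (chr6:129022911-129022970, plus strand): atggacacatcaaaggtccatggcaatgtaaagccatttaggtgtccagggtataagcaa
Klre1 (chr6:129556900-129556959, plus strand): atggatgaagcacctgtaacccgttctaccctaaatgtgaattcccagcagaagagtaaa
Klrh1 (chr6:129752744-129752803, minus strand): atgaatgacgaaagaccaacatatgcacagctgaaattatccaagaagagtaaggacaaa
Klra3 (chr6:130312703-130312762, minus strand): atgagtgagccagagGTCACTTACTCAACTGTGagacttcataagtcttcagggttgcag
Klra7 (chr6:130208521-130208580, minus strand): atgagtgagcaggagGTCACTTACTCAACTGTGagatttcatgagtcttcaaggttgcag
Klra17 (chr6:129851811-129851870, minus strand): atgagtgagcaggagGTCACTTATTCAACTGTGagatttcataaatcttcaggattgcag
Klra2 (chr6:131222230-131222289, minus strand): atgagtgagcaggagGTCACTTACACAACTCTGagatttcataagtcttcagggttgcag

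Klrc1 held the motif and its activating relative Klrc2 did not, while the 4 Klra starts shown held it at the same place. In the first 240 coding bases, 15 of 27 members (55.6%) held a match, against 2329 of 21296 protein-coding genes (10.9%). A match describes letters only: Klrb1c, known as an activating receptor, also held one. Near-identical stretches limit how reads can be assigned: 37.9% of the 50-base stretches of Klrc1 transcripts, 36.3% of those of Klrc3 and 16.2% of those of Klrc2 also occurred in another member, as did 17.3% of those of Klra3, so values within the Klrc group and within the Klra group are uncertain, and sums over a group are given beside the main comparisons.

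The libraries held 83228442 UMIs (UT) and 89918925 UMIs (BUP). After removal of cells with 100 UMIs or fewer or with 20% or more mitochondrial UMIs, 7163 of 7556 UT and 6776 of 7221 BUP barcodes were kept, with medians of 8430 and 10420 UMIs. Among all barcodes, 76 sequences occurred in both libraries. Kept cells held 38181 Klr UMIs in UT and 36549 in BUP. Of the 27 members, 21 held at least 50 UMIs and are described. The other 6 were Klra9 (48 UMIs), Klra4 (37), Klrb1 (26), Klra10 (20), Klra8 (3) and Klra6 (0).

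Cells were clustered without the Klr genes and named from marker genes. NK-like cells (299 in UT, 236 in BUP) held 896 and 825 CPM (UMIs of a gene per 1000000 UMIs of the class) of Ncr1, the NKp46 receptor, with 22.8 and 28.4 CPM of the T cell gene Cd3e. CD8 T-like cells (220 and 375) held 1545 and 1500 CPM of Cd3e and 1067 and 949 CPM of Cd8a. Cycling NK-like (56 and 51), cycling CD8 T-like (92 and 194) and regulatory T-like cells (88 and 64) formed clusters of their own. Gamma-delta T-like cells were few, 17 in UT and 12 in BUP, and carried Trdc at 236 and 293 CPM and Il17a at 1807 and 1438 CPM. A UMI counts a transcript molecule once whatever its length, so CPM values of different genes are compared without a correction for length. For members that share sequence with another member, as given above, such comparisons remain uncertain.

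NK-like cells held 21.1% of all Klr UMIs in UT and 16.1% in BUP, and CD8 T-like cells held 11.7% and 17.5%. Relative to the total of each class the lineages were close: all Klr genes summed to 2912 and 3030 CPM in NK-like cells and to 3132 and 2875 CPM in CD8 T-like cells. Cycling CD8 T-like cells held 2602 and 2395 CPM and cycling NK-like cells 2365 and 2524 CPM. Lower sums stood in regulatory T-like cells (1366 and 1059 CPM) and in gamma-delta T-like cells (591 and 503 CPM). For reference, a large non-immune cluster led by Ogn and Aspn, left unnamed, held 30.7 and 19.6 CPM. That level was not evenly spread: 5 cells held 88.9% and 60.3% of its Klrd1 UMIs, and 11% and 4.82% of its cells had top doublet scores, while its 72 Klrg2 UMIs in BUP lay in 69 cells. A cluster with both T cell and macrophage markers held a further 20.2% and 18.9% of Klr UMIs. Of its cells, 32.7% and 31.0% were among the highest doublet scores, and it is left out of the class values.

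**Figure D1:**
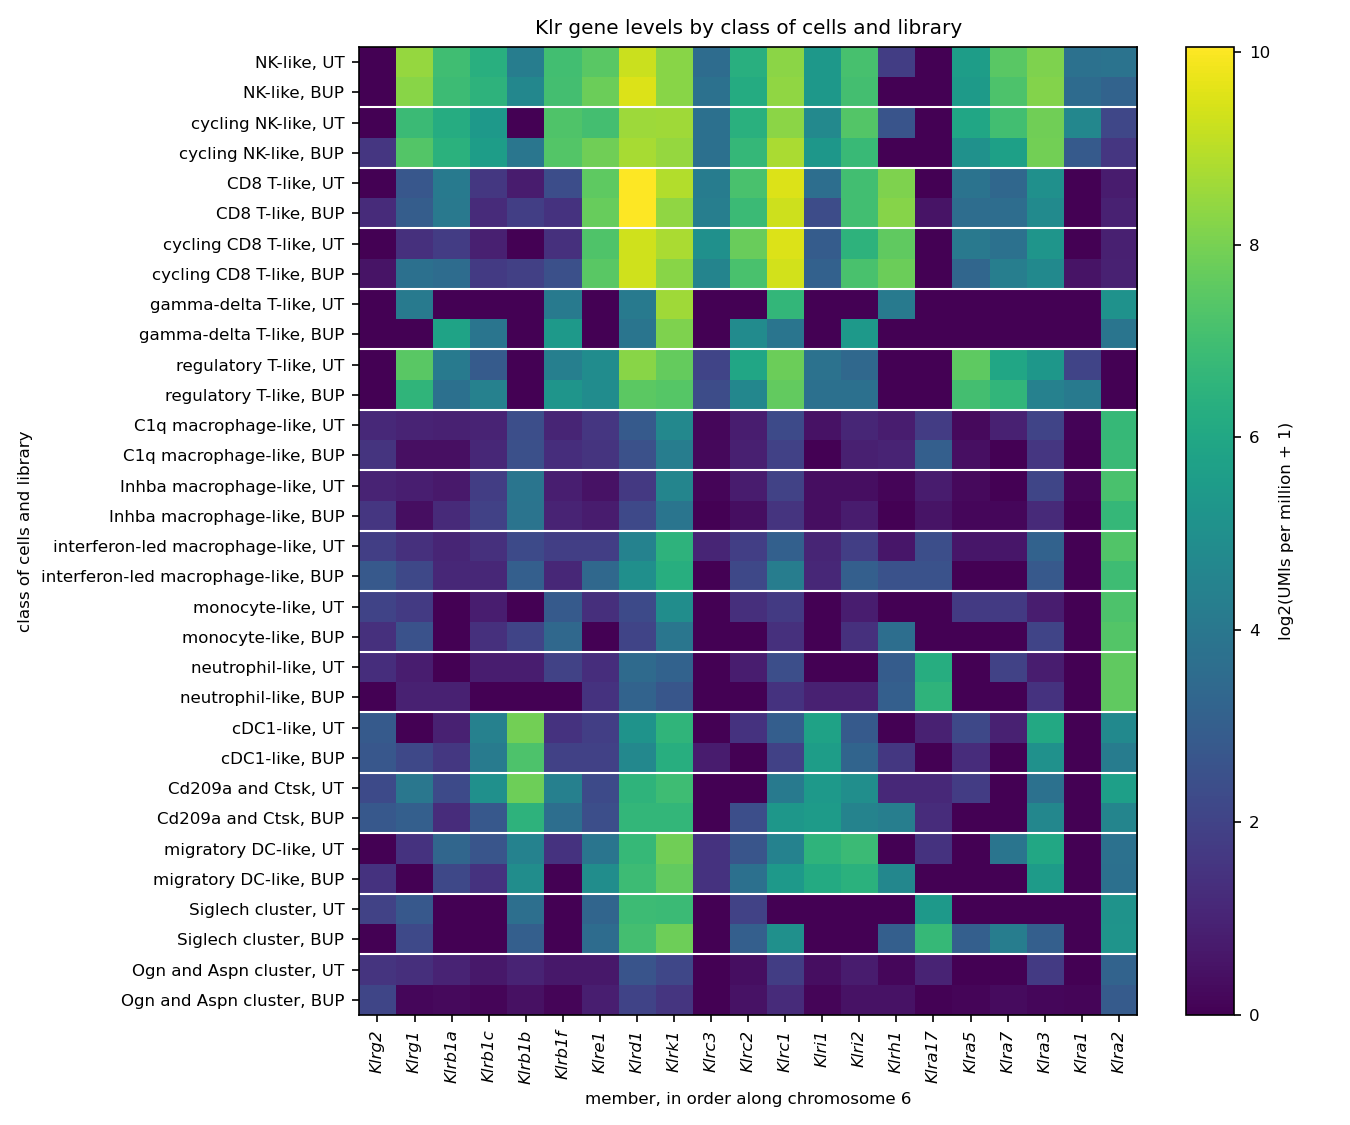
Heat map of log2(CPM + 1) of the 21 described members (columns, in order along chromosome 6) in each class of cells and library (one line for UT and one for BUP per class). Klrg1 and the Klrb1a, Klrb1c, Klrb1f and Klra3 columns are bright in NK-like cells, Klrh1 in CD8 T-like cells, Klra2 in macrophage-like, monocyte-like and neutrophil-like cells, and Klrb1b in cDC1-like cells.

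NK-like and CD8 T-like cells carried a similar summed level through different members. Klrg1 stood at 349 and 310 CPM in NK-like cells of UT and BUP and at 5.63 and 6.73 CPM in CD8 T-like cells, a log2 ratio of NK-like over CD8 T-like of 5.96 (4.97 to 7.17) in UT and 5.53 (4.79 to 6.37) in BUP. Klrb1f, whose start is printed above, was at 128 and 130 against 4.22 and 1.79 CPM. Klrb1c, the NK1.1 gene, was at 80.1 and 88.7 against 2.11 and 1.35 CPM, on 3 UMIs in each CD8 T-like class. The groups did not come close to each other for these 3 genes in either library. Klrb1a was at 124 and 119 against 16.2 and 15.7 CPM. Both libraries gave the same order for the Ly49 genes Klra3 (276 and 289 against 32.3 and 27.3 CPM), Klra7 (180 and 151 against 9.14 and 11.2 CPM) and Klra5 (47.5 and 43.3 against 13.4 and 11.2 CPM). The Klra genes together were at 539 and 513 against 58.4 and 51.6 CPM. Klra1 held 34 and 20 UMIs in NK-like cells and 0 in CD8 T-like cells of both libraries, where a count of 0 allows up to 2.11 and 1.35 CPM.

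Klrh1, an orphan receptor of the same gene cluster, ran the other way. CD8 T-like cells held 397 and 659 UMIs, 279 and 295 CPM. NK-like cells held 7 UMIs in UT, in 3 of 299 cells, and 0 in BUP, which allows up to 1.55 CPM. The log2 ratio of NK-like over CD8 T-like cells in UT was -6.78 (-8.11 to -5.73). A UMI of Klrh1 was seen in 39.5% and 41.6% of CD8 T-like cells and in 40.2% of cycling CD8 T-like cells in each library, and the regulatory T-like cells held no Klrh1 UMI, which allows up to 9.65 and 12.2 CPM. With each cell thinned to 2000 UMIs the shares in CD8 T-like cells were 26.2% and 29.2%. At that depth Klrc1 was seen in 75.0% of Klrh1-positive and 75.3% of Klrh1-negative CD8 T-like cells of UT, and in 69.5% and 63.1% of those of BUP.

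The CD94/NKG2 genes were carried by both lineages, at a higher level in CD8 T-like cells. Klrd1 was at 601 and 731 CPM in NK-like cells and at 1063 and 1064 CPM in CD8 T-like cells, which makes it the most abundant member in both. Klrc1 was at 314 and 332 CPM in NK-like against 743 and 620 CPM in CD8 T-like cells, a log2 ratio of -1.24 (-1.37 to -1.11) in UT and -0.90 (-1.04 to -0.77) in BUP. Klrc2 followed at 79.3 and 71.2 against 144 and 115 CPM. The Klrc genes together were at 405 and 416 CPM in NK-like against 905 and 754 CPM in CD8 T-like cells. A Klrc1 UMI was seen in 68.9% and 74.2% of NK-like cells and in 91.8% and 86.9% of CD8 T-like cells, which had medians of 7476 and 7177 and of 5865.5 and 5600 UMIs. Thinned to 2000 UMIs, with 11 and 12 NK-like and 6 and 15 CD8 T-like cells left out as shallower, the shares were 47.6% and 41.5% against 75.2% and 65.0%. The same share in the Ogn and Aspn cluster was 0.211% and 0.203%, at medians of 13690 and 13992 UMIs.

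**Figure D2:**
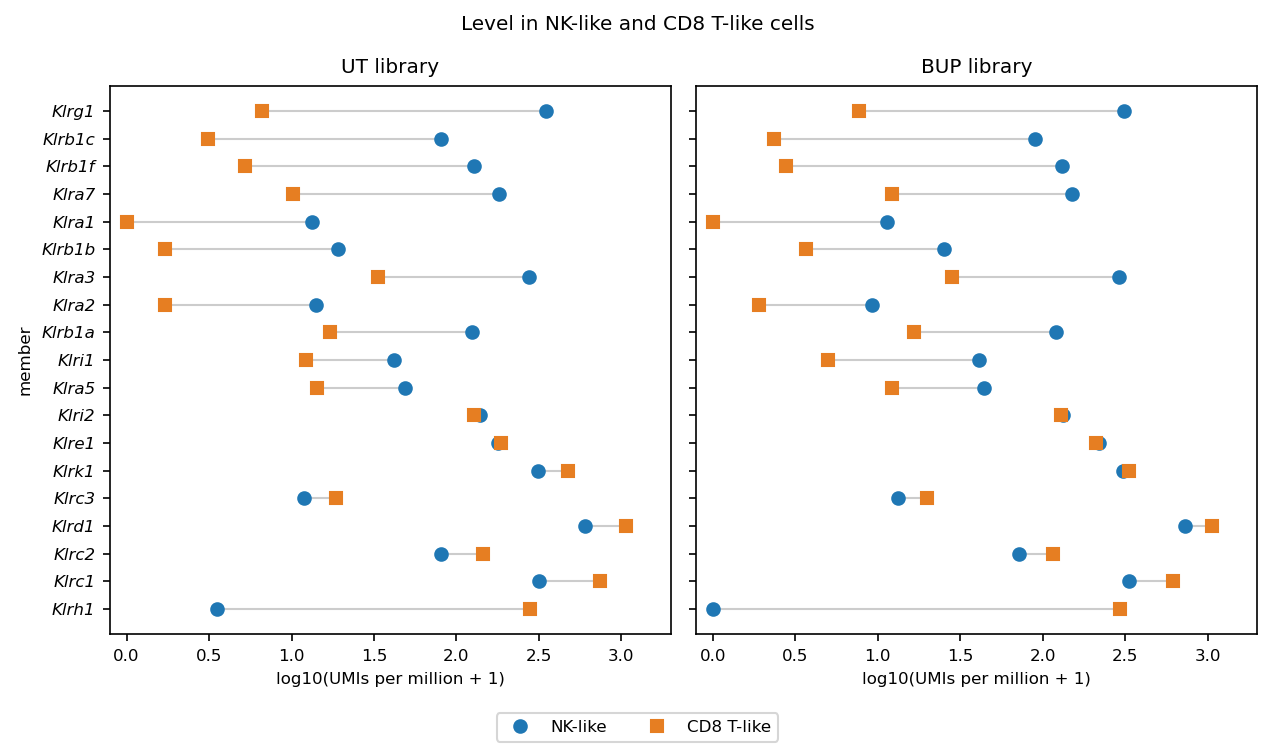
Level of each described member, as log10(CPM + 1), in NK-like cells (circles) and CD8 T-like cells (squares), with the UT library on the left and the BUP library on the right. Klrg1, Klrb1c, Klrb1f and the Klra genes lie to the right in NK-like cells, Klrh1 in CD8 T-like cells, and Klre1 and Klri2 at nearly the same level in both.

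Other members differed little between the lineages or split by partner. Klre1, which pairs with Klri1 or Klri2, was at 177 and 219 CPM in NK-like and 186 and 211 CPM in CD8 T-like cells. Klri2, the activating partner, was at 137 and 132 against 127 and 128 CPM, and the intervals of both log2 ratios included 0 in both libraries. Klri1, the inhibitory partner, was at 40.6 and 40.2 CPM in NK-like cells against 11.3 and 4.04 CPM in CD8 T-like cells. Klrk1 was lower in NK-like than in CD8 T-like cells of UT, at 311 against 472 CPM (log2 ratio -0.60, -0.75 to -0.45), and the classes were closer in BUP, at 306 against 335 CPM (-0.13, -0.29 to 0.03).

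Ly49 genes are known to be switched on in varied combinations from one NK cell to the next. Over the 9 Klra genes other than Klra2 and Klra17, 32.8% of UT and 40.7% of BUP NK-like cells had no UMI of any, 39.8% and 31.4% had 1 gene, 22.4% and 23.3% had 2 genes, and 5.02% and 4.66% had 3 or more. At 2000 UMIs per cell 46.9% and 55.8% had none. The share of cells with Klrg1 differed by Klrc1. At 2000 UMIs Klrg1 was seen in 27.7% (20.4 to 36.0%) of Klrc1-positive and 44.4% (36.3 to 52.7%) of Klrc1-negative NK-like cells of UT, and in 19.4% (11.9 to 28.8%) and 43.5% (34.9 to 52.5%) of those of BUP. For Klra7 the shares were 12.4% (7.40 to 19.1%) against 21.9% (15.6 to 29.3%) in UT. In BUP they were 9.68% (4.52 to 17.6%) against 18.3% (12.1 to 26.0%), and the intervals overlapped in both libraries. For Klra3 the shares were close, 38.0% against 36.4% in UT and 31.2% against 36.6% in BUP. Klrc2 went with Klrc1, at 24.1% against 10.6% and 17.2% against 7.63%, and these 2 genes share sequence. These are descriptions over cells of 1 library each.

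NK-like cells with a Klrg1 UMI held less Emb, which encodes the adhesion protein embigin: 61.9 against 202 CPM of the thinned counts in UT and 107 against 231 CPM in BUP, log2 ratios of -1.71 (-2.68 to -0.85) and -1.12 (-2.0 to -0.32). Ltb, a lymphotoxin gene, was lower as well (-0.51 and -0.71). Cells with a Klra3 UMI held less Ly6c2, by log2 ratios of -0.97 and -0.99. Among CD8 T-like cells, those with Klrc1 held more Gzmb, the granzyme B gene, in BUP (1665 against 917, log2 ratio 0.86, 0.65 to 1.08), and the ratio in UT was 0.28 (0.00 to 0.56). Ifng was 0.87 (0.43 to 1.32) in BUP and -0.35 (-0.88 to 0.20) in UT, so its direction was not shared by the libraries. Klrh1-positive CD8 T-like cells held less Prf1, the perforin gene, by log2 ratios of -0.73 (-1.05 to -0.41) and -0.25 (-0.46 to -0.04).

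Gamma-delta T-like cells carried mainly Klrk1. It held 23 UMIs in 10 of 17 cells of UT and 20 UMIs in 7 of 12 cells of BUP, 388 and 279 CPM. Klrd1 held 1 UMI in each library and Klrc1 6 and 1. No member reached the 50 UMIs set for a ratio, and all Klr genes gave a log2 ratio of BUP over UT of -0.23 (-0.95 to 0.48). In regulatory T-like cells Klra5, an Ly49 gene, stood at 186 and 130 CPM, above its NK-like level, but 5 cells or fewer held 75.9% and 100% of its UMIs. That cluster also held Ncr1 at 64.3 and 61.1 CPM, and the part of NK cells in its values was not tested.

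Myeloid cells used a small set of members. Klra2, an inhibitory Ly49 gene, was at 192 and 191 CPM in neutrophil-like, 150 and 164 CPM in monocyte-like, 143 and 103 CPM in Inhba macrophage-like and 105 and 111 CPM in C1q macrophage-like cells. Its level in NK-like cells was 13.0 and 8.25 CPM and in the Ogn and Aspn cluster 8.13 and 6.46 CPM. Klra17 was at 76.7 and 91.3 CPM in neutrophil-like cells, with 0 UMIs in NK-like cells of both libraries. In the Siglech cluster it was at 40.9 and 104 CPM, on 14 and 29 UMIs, so that cluster was the highest in BUP. Both genes hold the inhibitory motif in the starts printed above. In monocyte-like, macrophage-like and neutrophil-like cells other than the interferon-led cluster, members with the motif made up 75.8% to 92.2% of Klr UMIs, against 45.9% and 43.1% in NK-like and 26.3% and 23.9% in CD8 T-like cells. The interferon-led cells lay lower, at 59.6% and 53.3%, as did migratory DC-like cells at 32.8% and 29.8%. Members without the motif include Klrd1, at 1063 and 1064 CPM in CD8 T-like cells, which pairs with inhibitory Klrc1 as well as with Klrc2. The share therefore does not divide inhibitory from activating receptors. Klra2 alone gave 1421 of 1958 Klr UMIs in UT and 727 of 1041 in BUP in Inhba macrophage-like cells.

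**Figure D3:**
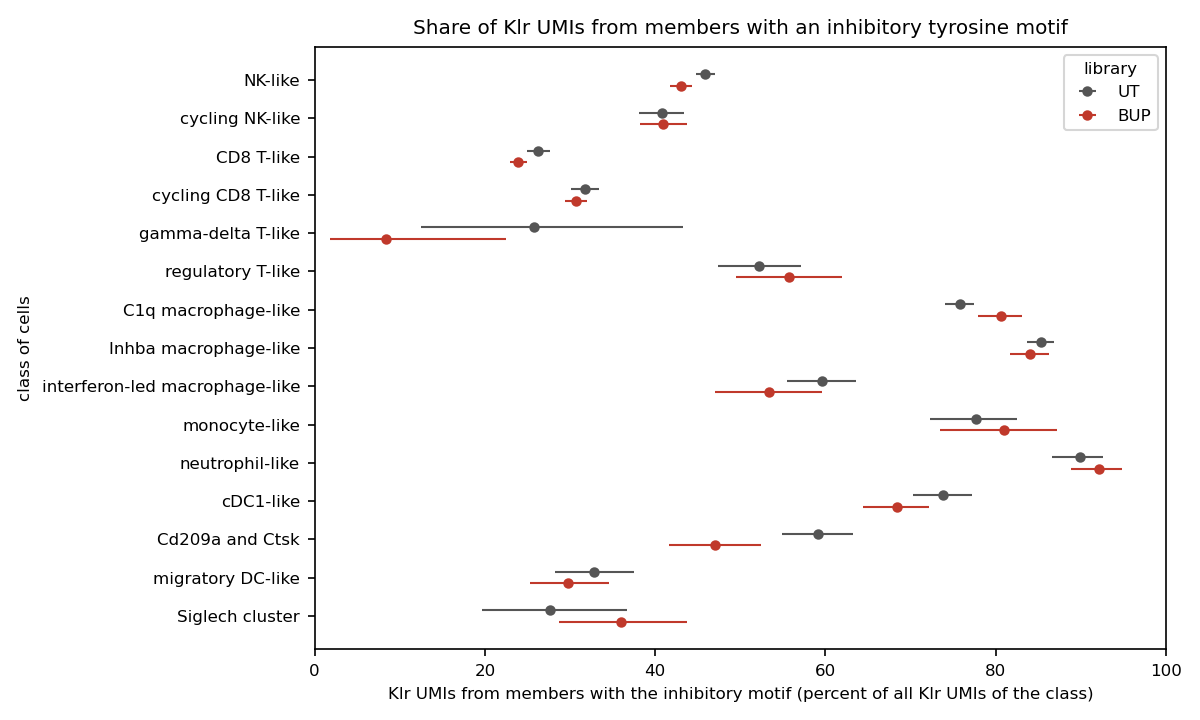
Percent of all Klr UMIs of a class that came from the 15 members with the inhibitory motif, for UT and BUP, with exact 95% binomial intervals as bars. Neutrophil-like cells lie highest at 89.9% and 92.2%, and CD8 T-like cells lie at 26.3% and 23.9%.

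Klrb1b, an inhibitory receptor for Clec2d, was at 237 and 152 CPM in cDC1-like cells (70 and 87 cells), against 18.1 and 24.2 CPM in NK-like cells. A cluster of 87 and 63 cells held it at 228 and 90.6 CPM and was led by both dendritic genes (Cd209a, Mgl2) and genes known from osteoclasts (Ctsk, Acp5), which is left unnamed. Klri1 was higher in migratory DC-like cells (92.1 and 69.9 CPM) than in NK-like cells, at 227% and 174% of the NK-like level. It was at 136% and 117% of that level in cDC1-like cells and at 105% and 111% in the Cd209a and Ctsk cells. Klri2 was at 115 and 83.9 CPM and Klrk1 at 232 and 199 CPM in migratory DC-like cells. Ncr1 in migratory DC-like cells was at 3.76% and 1.06% of its NK-like level and in cDC1-like cells at 0.88% and 2.59%. Ncr1 does not mark T cells. Cd3e was at 10.6 and 87.4 CPM in migratory DC-like and at 7.01 and 12.8 CPM in cDC1-like cells. Nkg7, high in NK-like and CD8 T-like cells, was at 46.1 and 229 CPM in migratory DC-like cells, of which 4.05% and 14.9% had top doublet scores. The part of T cells in these values was not tested. Klrk1 was also at 90.3 and 77.8 CPM in the interferon-led macrophage-like cells, above 25.1 and 18.2 CPM in the C1q cluster. Nkg7 was at 76.9 and 98.2 CPM in the former and 21.4 and 16.4 CPM in the latter, and Cd3e at 34.4 and 38.3 against 7.92 and 7.63 CPM. The part of lymphoid cells in these Klrk1 levels was not tested.

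**Figure D4:**
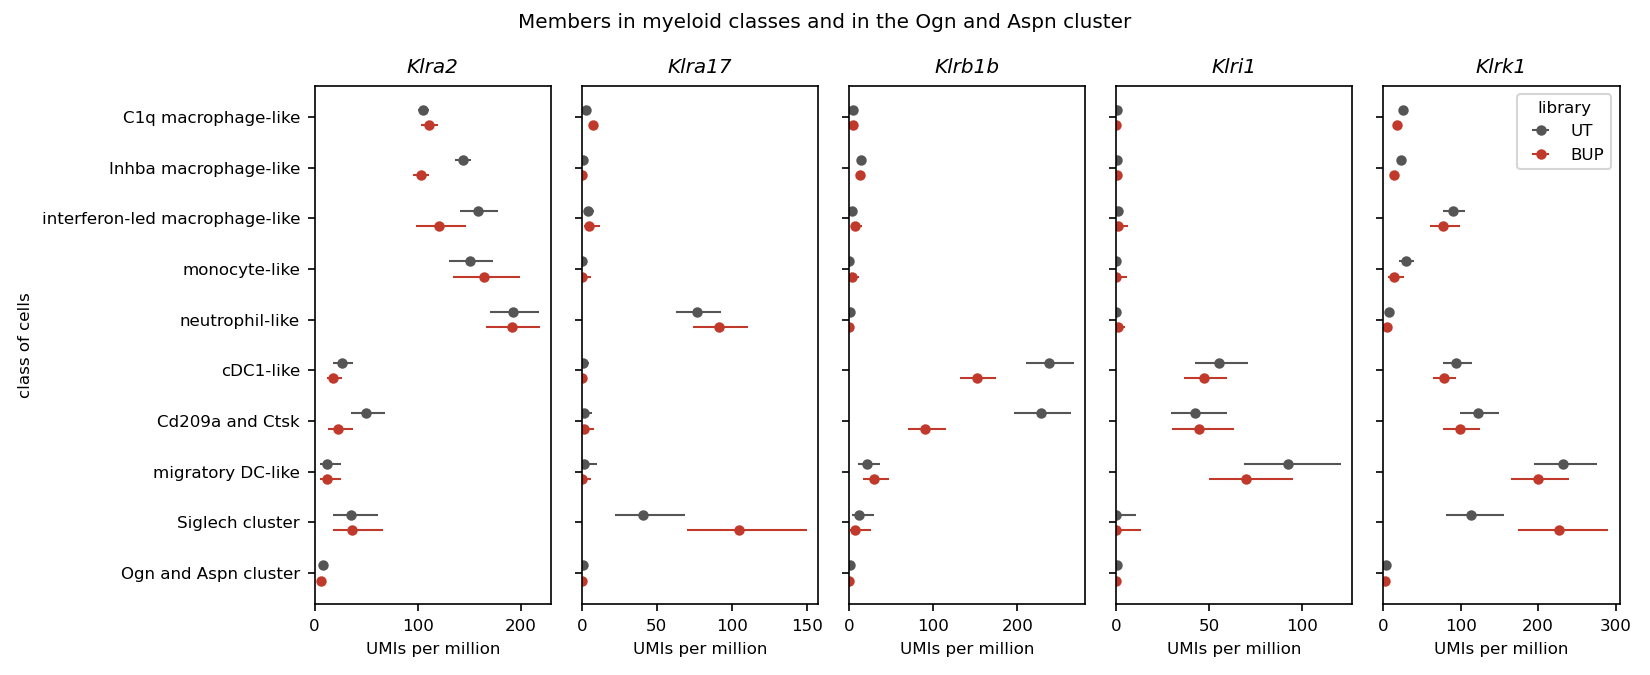
CPM of Klra2, Klra17, Klrb1b, Klri1 and Klrk1 in each myeloid class and in the Ogn and Aspn cluster, for UT and BUP, with exact 95% Poisson intervals as bars. Klra2 lies between 103 and 192 CPM in the monocyte-like, macrophage-like and neutrophil-like classes, and Klrb1b reaches 237 CPM in cDC1-like cells of UT.

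Between BUP and UT most members differed by less than 1.5-fold in NK-like cells. Among 18 members with 50 UMIs there, 0 were past 1.5-fold higher and 1 lower in BUP, where 1.81% and 6.12% of all genes were. The 1 lower was Klra2, on 36 and 16 UMIs, with a log2 ratio of -0.66 (-1.61 to 0.23), which was 0.041 with cells thinned to 2000 UMIs. Klrd1 was higher in BUP by 0.28 (0.18 to 0.39) and Klre1 by 0.31 (0.12 to 0.50), and Klrg1 was lower by -0.17 (-0.32 to -0.02) and Klra7 by -0.25 (-0.47 to -0.04). The Klra genes together gave -0.07 (-0.19 to 0.04) and the Klrc genes 0.04 (-0.09 to 0.17). With cells thinned to 2000 UMIs, Klrd1 gave 0.15 and the Klrc genes together -0.21, both outside these intervals. The sum of all Klr genes gave 0.06 (0.01 to 0.11). The median log2 ratio was -0.02 over the 18 members and -0.08 over all genes.

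In CD8 T-like cells 0 of 10 members were past 1.5-fold higher and 0 lower, where 2.56% and 6.36% of all genes were. The largest difference among these 10 was in Klrk1, with 472 and 335 CPM in UT and BUP (log2 ratio -0.50, -0.65 to -0.34). Klrc1 gave -0.26 (-0.38 to -0.14) and Klrc2 -0.32 (-0.59 to -0.05), and the Klrc genes together -0.26 (-0.37 to -0.16), while Klrd1 gave 0.00 (-0.09 to 0.10) and Klrh1 0.08 (-0.10 to 0.27). The cycling CD8 T-like cells, other cells of the same libraries, gave -0.52 (-0.68 to -0.35) for Klrk1, at 434 and 304 CPM, and -0.19 (-0.31 to -0.07) for Klrc1. There 2 of 10 members were higher (4.59% of all genes were) and 1 lower (5.43%): Klri2 by 0.68 (0.36 to 1.01), Klra7 by 0.61 (-0.27 to 1.57) on 15 and 42 UMIs, below 0 as a mean of log-normalized values, and Klrc2 by -0.60 (-0.84 to -0.36). The Klrc genes together gave -0.28 (-0.39 to -0.17) there and the Klra genes -0.30 (-0.71 to 0.12). Hcst, the partner of Klrk1, was higher in BUP CD8 T-like cells, at 340 and 516 CPM (0.60, 0.45 to 0.76).

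**Figure D5:**
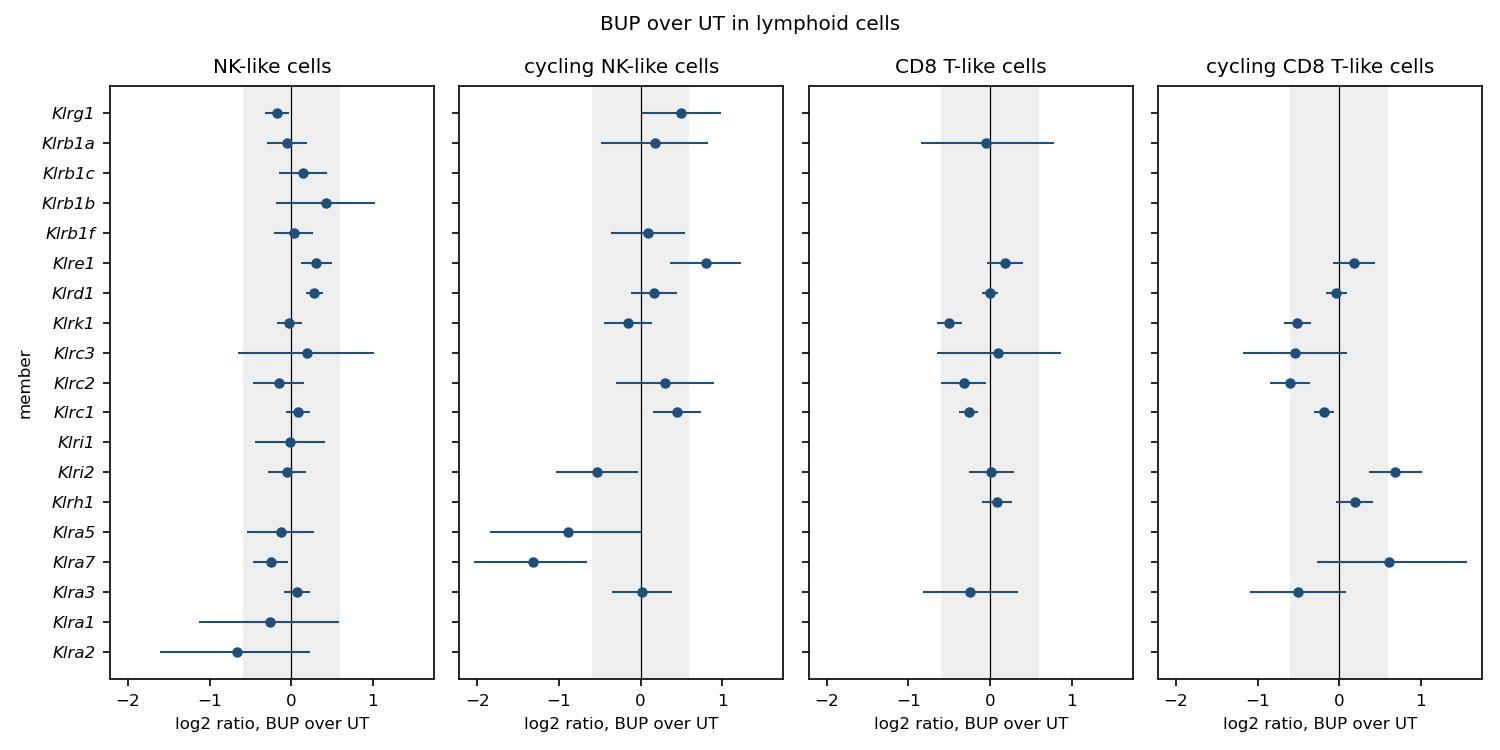
Log2 ratio of BUP over UT for each member with 50 UMIs in NK-like, cycling NK-like, CD8 T-like and cycling CD8 T-like cells, with exact 95% intervals as bars and the range within 1.5-fold shaded. Klrk1 lies at -0.50 and -0.52 in the CD8 classes and at -0.03 in NK-like cells.

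The smaller lymphoid classes spread more. In cycling NK-like cells 1 of 12 members was higher (6.9% of all genes were), Klre1 at 133 and 231 CPM (0.80, 0.37 to 1.23). Another 2 were lower (6.88%), Klra7 at 128 and 51.1 CPM (-1.32, -2.04 to -0.65) and Klra5 at 60.5 and 32.7 CPM (-0.89, -1.84 to 0.00). Klrg1 was at 116 and 164 CPM (0.50, 0.01 to 0.99), but at 1.55 to 1.74 under 4 of the alternative clusterings. The Klra genes together gave -0.45 (-0.74 to -0.16). Of the Klra7 UMIs, 81.1% and 92.0% lay in 5 cells. In regulatory T-like cells 0 of 5 members were higher and 2 lower, where 7.7% and 17.6% of all genes were: Klrg1 on 55 and 23 UMIs (-0.92, -1.69 to -0.19) and Klrd1 on 95 and 45 UMIs (-0.74, -1.28 to -0.21). In BUP 4 cells held all 23 Klrg1 UMIs. The markers of this class differed between the libraries too: Foxp3, the regulatory T cell factor, was at 283 and 106 CPM, Cd4 at 151 and 77.4 CPM, Trdc at 70.7 and 24.4 CPM and Cd8b1 at 228 and 318 CPM. Their part in these ratios was not tested. The Klrd1 value was -0.22 with 30 principal components and -0.13 with cells thinned to 2000 UMIs.

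Among myeloid classes, 1 of 3 members in Inhba macrophage-like cells was lower (3.08% of all genes were) and 0 higher (2.26%): Klrk1 at 22.7 and 13.9 CPM (-0.71, -1.07 to -0.36), a value that turned to 0.33 when clusters were cut more finely. Klra2 gave -0.48 (-0.61 to -0.35) there and 0.08 (-0.05 to 0.21) in C1q macrophage-like cells. In the C1q class 1 of 7 members was higher (4.29%), Klra17 on 37 and 44 UMIs (1.56, 0.89 to 2.23), and 1 lower (3.16%), Klra3 on 47 and 12 UMIs (-0.66, -1.71 to 0.27). The neutrophil gene S100a8 stood at 382 and 1375 CPM in the same cells, and its part in the Klra17 ratio was not tested. In cDC1-like cells 2 of 6 were lower (8.56%) and 0 higher (2.95%), Klrb1b (-0.64, -0.91 to -0.38) and Klra3 at 65.7 and 33.4 CPM (-0.97, -1.53 to -0.43). In the Cd209a and Ctsk cells 2 of 5 were lower (12.9%) and 0 higher (11.5%), Klrb1b (-1.33, -1.77 to -0.91) and Klra2 (-1.12, -2.05 to -0.25), which with 30 principal components were at -0.84 and -0.10. In these cells Cd209a was at 561 and 311 CPM, Ccr7 at 177 and 47.5 CPM and Lyz2 at 3157 and 1313 CPM, and the part of this difference in makeup was not tested. In the Siglech cluster, left unnamed because B cell genes were among its leading genes, 1 of 2 was higher (9.08%) and 0 lower (12.9%), Klrk1 on 39 and 63 UMIs (1.00, 0.40 to 1.61). Cd3e was at 0 and 86.5 CPM and Nkg7 at 23.4 and 162 CPM in that cluster, and 0% and 12.8% of its cells had top doublet scores. The part of T cells in the Klrk1 ratio was not tested. No member was past 1.5-fold in the remaining classes. The interferon-led macrophage-like cells had 3 members with 50 UMIs (3.35% of all genes were higher and 6.03% lower there), and the monocyte-like cells had 1 (4.38% and 6.48%). Neutrophil-like cells had 2 (2.35% and 14.9%), migratory DC-like cells 5 (8.07% and 7.85%), and a cluster that mixed markers of neutrophils with those of macrophages 3 (3.46% and 5.94%).

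Ligands of these receptors were followed in non-immune clusters led by Ogn and Aspn and by Krt20 and Nppb, and in macrophage-like cells. Of 19 listed genes 15 were in the tables, and 8 reached 50 UMIs in each non-immune cluster. Raet1a, Raet1b, Raet1c and H60a were listed but not in the tables, so their levels in these cells are not known. In the Ogn and Aspn cells 0 were past 1.5-fold higher (1.31% of all genes were) and 1 lower (4.03%), Raet1e on 20 and 40 UMIs (-0.63, -1.44 to 0.22). In the Krt20 and Nppb cells 0 were higher (1.85%) and 0 lower (4.31%). H2-T23, which encodes the Qa-1 ligand of Klrc1, was at 224 and 190 CPM in the former and at 87.2 and 97.2 CPM in the latter. Ulbp1, a ligand of Klrk1, was at 14.4 and 11.9 CPM and at 48.8 and 42.3 CPM. Macrophage-like cells held more H2-T23, 477 and 336 CPM in the Inhba class (-0.50, -0.58 to -0.43) and 423 and 399 CPM in the C1q class.

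Of the 12 listed adaptor and signaling genes, 0 were past 1.5-fold in either direction in NK-like cells, where 1.81% of all genes were higher and 6.12% lower. Tyrobp was at 2145 and 2641 CPM (0.30, 0.25 to 0.35) and Hcst at 191 and 240 CPM (0.33, 0.14 to 0.51). In CD8 T-like cells 1 of 10, Hcst, was higher and 0 lower, where 2.56% and 6.36% of all genes were. Among the other NK receptors, 0 of 10 were past the fold in NK-like cells, beside the same 1.81% and 6.12% of all genes. In CD8 T-like cells 0 of 8 were higher and 3 of 8 lower, beside 2.56% and 6.36% of all genes. The lower ones were Slamf7 (-1.11), Il18r1 (-0.71) and Cd226 (-0.65).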

How the data were processed

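Libraries were made with 10x Genomics 5′ v2 chemistry. The deposited tables hold UMI counts per gene and cell, which the authors made by alignment to GRCm39. The submitters' processing notes name Cell Ranger 8.0.1 and Seurat 5.0.1. Counts were not normalized by the authors. Cells with over 100 UMIs and under 20% mitochondrial UMIs were kept, as in the study's methods.

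Cells of both libraries were log-normalized and clustered together without integration in Seurat 5.3.0 (R 4.3.3), on 2000 variable genes without the Klr genes, 20 principal components and a resolution of 0.5. Clusters were named from listed markers, and the limits used for naming were set after the clusters were seen. A T cell cluster was kept out of CD8 T-like by its high Mcm3, at 308 and 216 CPM in UT and BUP. It also held the CD8 genes Cd8a at 833 and 833 CPM and Cd8b1 at 715 and 640 CPM. Igkc, among its leading genes, was at 31.4 and 3.39 CPM. The cluster held 56 UT and 55 BUP cells. Doublets were scored with Scrublet (scanpy 1.11.5) and none were removed, and the top 6% of scores were left out as an alternative.

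UMIs were summed per class and library and divided by the class total to give CPM. Log2 ratios of BUP over UT have exact intervals conditional on the summed counts. Levels and shares have exact Poisson and Clopper-Pearson intervals, and all were computed with scipy 1.17.1. Only the ratios were run on simulated data, drawn as Poisson counts, the model their intervals assume. That run does not cover counts gathered in a few cells. With 1 library per condition no test was run, and a gene was called past 1.5-fold by its ratio alone. A member was described with at least 50 UMIs in kept cells, and a ratio was given where a class held at least 50. A count of 0 allows 3 UMIs. The members, the gene lists and the rule for named genes were chosen with earlier results of these data known. Gene positions and coding sequences were taken from the GENCODE annotation of GRCm39.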

Additional observations from a re-analysis of the deposited data

Results flagged for a closer look

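For 3 quantities the ratio of BUP over UT pointed in opposite directions in different classes, each past 1.5-fold with an interval that left out 0. The Klrb1 genes together gave 1.36 in cycling CD8 T-like cells, on 10 and 47 UMIs (-1.06 with cells thinned to 2000 UMIs). They gave -1.38 in the Cd209a and Ctsk cells, on 228 and 76 UMIs (-0.88 with 30 principal components), where Cd209a was at 561 and 311 CPM. Klrk1 gave -0.71 in Inhba macrophage-like cells and 1.0 in the Siglech cluster, where Cd3e was at 0 and 86.5 CPM, Nkg7 at 23.4 and 162 CPM and top doublet scores at 0% and 12.8% of cells. The Klra genes together gave -0.9 in cDC1-like cells (-0.25 with cells thinned to 2000 UMIs) and -0.7 in migratory DC-like cells. In the Siglech cluster they gave 1.19, on 26 and 48 UMIs. The differences between classes were not tested, since each condition had 1 library. Of the 47 Klrb UMIs in BUP cycling CD8 T-like cells, 59.6% lay in 5 cells, and that class held 11.6 and 25.7 CPM of Ncr1. The part of other cells in these values was not tested.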

How the results depend on the processing

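Of 1203 values recomputed for 155 results, 1071 counted as the same, 127 as moved and 5 as turned. The same meant within the counting interval of the reported ratio or share, whatever the sign, or within 1.5-fold of a reported count. For means of log-normalized values it meant the same sign, or an interval that included 0. Turned was kept for ratios past 1.5-fold that changed sign, so values that moved include smaller ratios that changed sign. Among the values of single members and subfamilies 76 of 1039 moved. The causes were not tested, apart from thinning, which leaves fewer UMIs by construction. No paired analysis was possible because each condition had 1 library. The lower level of Klrk1 in BUP CD8 T-like cells stayed between -0.58 and -0.41 as a log2 ratio under the alternatives run and was also lower as a mean of log-normalized values, and in cycling CD8 T-like cells it was at -0.21 after thinning.

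The 5 ratios past 1.5-fold that turned were these. When thinned to 2000 UMIs, Klra2 in NK-like cells gave 0.041 and the Klrb1 genes in cycling CD8 T-like cells -1.06. At resolution 1.0, Klrk1 in Inhba macrophage-like cells gave 0.33 and the Klrc genes 0.59. As a mean of log-normalized values, Klra7 in cycling CD8 T-like cells gave -0.00906.

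Members past 1.5-fold are counted next. The share of all genes past the fold was not computed under these settings, so these counts are not read as results about the members. In NK-like cells 1 was higher with a minimum of 20 UMIs, and 0 were lower with median-ratio scaling, a minimum of 200 UMIs or thinning. In cycling NK-like cells 2 were higher at resolution 1.0, with 30 principal components, with Klr genes among the variable genes or without the top doublet scores; a minimum of 200 UMIs left 0 higher and 0 lower, and thinning left 1 lower. In CD8 T-like cells 1 was lower with a minimum of 20. In cycling CD8 T-like cells 1 was higher with a stricter cell filter, resolution 1.0, 30 components, Klr genes kept, doublet scores removed or a minimum of 200, 4 with a minimum of 20 and 0 after thinning. There 2 were lower with 30 components or a minimum of 20, and 0 with median-ratio scaling. In regulatory T-like cells 1 was higher with 30 components, without doublet scores or with a minimum of 20, and 1 was lower with 30 components or without doublet scores and 0 after thinning.

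The log2 ratio of all Klr genes was 0.13 (median-ratio scaling) and -0.0224 (thinned) in NK-like cells, against 0.06 reported. In CD8 T-like, cycling CD8 T-like and regulatory T-like cells it was -0.12, -0.12 and -0.37 under the settings used for the report. In CD8 T-like cells it became -0.052 with 30 components, -0.049 with the Mcm3 T cluster joined, an alternative chosen after seeing the data, and -0.038 with median-ratio scaling. Thinning gave -0.23 in cycling CD8 T-like and -0.0709 in regulatory T-like cells, and 30 components gave -0.089 in the latter. The NK-like share of Klr UMIs in UT was 22.7% with 30 components, 22.7% with Klr genes kept, 26.4% without doublet scores and 24.6% thinned; in BUP it was 16.8% at resolution 1.0, 17.6% with 30 components or Klr genes kept, 20.8% without doublet scores and 19.4% thinned. The share of cells with Klrc1, lower by construction when thinned, was 47.6% and 41.5% of NK-like and 75.2% and 65.0% of CD8 T-like cells in UT and BUP, and 87.2% in UT CD8 T-like cells under the stricter filter.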

Other observations

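Genes of the NK and CD8 programs that stand beside the receptors were followed from lists of their own. Among transcription factors, 0 of 9 were past 1.5-fold in NK-like cells, where 1.81% of all genes were higher in BUP and 6.12% lower. In CD8 T-like cells 1 of 8 was higher in BUP and 0 lower, where 2.56% and 6.36% of all genes were: Eomes, a factor of memory and effector differentiation, with 37.3 and 75.8 CPM in UT and BUP (log2 ratio 1.02, 0.57 to 1.5). Among NK maturation genes in NK-like cells 0 of 5 were higher and 1 lower (1.81% and 6.12% of all genes were), Itgam, the CD11b gene, on 42 and 12 UMIs (-1.30, -2.36 to -0.35). Myeloid cells also express Itgam, and the myeloid genes Lyz2 (191 and 107 CPM) and C1qa (43.1 and 22.2 CPM) were lower in the same NK-like cells. Their part was not tested.

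Among genes of CD8 T cell state, 1 of 14 was higher and 2 were lower in BUP CD8 T-like cells, against the same shares of all genes. The higher gene was Gzmk, the granzyme K gene, at 66.8 and 129 CPM (0.95, 0.61 to 1.30). The lower genes were Il7r, the interleukin 7 receptor, at 76.6 and 43.9 CPM (-0.80, -1.21 to -0.40), and Gzma at 66.1 and 18.4 CPM (-1.85, -2.41 to -1.30). Gzma UMIs were seen in 14 of 220 and 10 of 375 cells, and 5 cells held 90.4% and 87.8% of them. Gzma was also lower in NK-like cells (8930 and 6141 CPM) and in the Ogn and Aspn cluster (35.3 and 2.44 CPM). In cycling CD8 T-like cells Gzmk was again higher (0.74, 0.38 to 1.12), and Ctla4 (-1.0, -1.21 to -0.79) and Il7r (-0.96, -1.43 to -0.50) were lower, 1 and 2 of 14, where 4.59% and 5.43% of all genes were. Gzma there was at 87.7 and 115 CPM (0.39, 0.05 to 0.73), the opposite direction from the other CD8 class. The NK gene Ncr1 pointed the same way as Gzma in each, at 11.6 and 25.7 CPM in the cycling and 12.7 and 6.28 CPM in the other class, and the part of NK cells was not tested. In macrophage-like cells of the C1q cluster, 1 of 10 receptor ligands was higher (4.29% of all genes were), Cdh1 on 22 and 28 UMIs (1.65, 0.80 to 2.53), and 1 lower (3.16%), Raet1d on 193 and 42 UMIs (-0.89, -1.41 to -0.41).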
